A study of Caenorhabditis elegans with 8 samples.

Results

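The cadmium response of C. elegans animals that lack functional hizr-1 was examined in the 4 libraries of the hizr-1(am286) strain, of 8 libraries in the series. They were chosen by their labels: 2 libraries from mutant cultures with cadmium and 2 from mutant cultures without it. The strain carries am286, a loss-of-function allele of hizr-1, and was represented by this allele alone. The remaining 4 libraries, 2 with and 2 without cadmium, came from the N2 wild type and serve below to show where the mutant differs. Mixed-stage populations of both strains were raised in parallel on E. coli OP50 for 4 days. Exposure followed on noble agar minimal medium plates that carried concentrated OP50, at 20 °C for 16 to 18 h. The labels give the cadmium chloride dose as 0 mM or 100 mM, and the latter is far above what C. elegans cultures usually receive, so the unit may be wrong, which the data cannot settle. Each sample pooled animals from 10 plates, and RNA was taken from whole animals, depleted of ribosomal RNA and sequenced.

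HIZR-1 is a nuclear receptor of the intestine that senses high zinc and switches on genes through a DNA element called HZA, among them the metallothioneins, which bind metal ions, and cdf-2, which moves zinc into gut granules. Cadmium shares chemistry with zinc and induces many of the same genes in C. elegans. Worms also meet cadmium by other routes: glutathione and phytochelatins bind it, glutathione S-transferases and the SKN-1 pathway act in electrophile and oxidant stress, and heat shock factors respond to damaged proteins. C. elegans cannot make haem and must take it up from bacteria, so haem transport is a separate branch of its metal biology.

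Total counts in the mutant libraries were 26044429 and 17681352 without cadmium and 29586507 and 19791267 with it, and the wild-type libraries lay within the same range. The gene hizr-1 itself had 18 and 7 counts in the mutant without cadmium and 20 and 18 with it, against 52 to 101 in the wild-type libraries. Every mutant library was thus below every wild-type library for hizr-1, and its own cadmium change in the mutant was 0.45 in log2 with a 95% interval of -0.459 to 1.361. The mutant library 2 without cadmium stood apart from the other mutant libraries. Its summed level over 78 cytosolic ribosomal protein genes was 66590 CPM (a gene's count over its library's summed counts, scaled as deposited CPM is, with library sizes corrected by the trimmed mean of M-values, TMM) against 99620 to 106000 CPM in the others. Over 33 histone genes it was 1734 CPM against 3813 to 3851 CPM. Mutant library 1 without cadmium was closer to mutant library 2 with cadmium (chi-square of the gene counts divided by its degrees of freedom, 8.57) than to its own duplicate (46.8). The wild-type libraries were spread too, over 74430 to 117500 CPM for the ribosomal genes and 2221 to 4971 CPM for the histone genes. The wild-type duplicates without cadmium were at 55.9 by the same chi-square measure. Several list medians below are given with and without mutant library 2 lacking cadmium, and many also without library 1.

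Few genes responded to cadmium in the mutant by the test across all genes. Of 15818 genes tested, 4 rose and 1 fell at an adjusted p under 0.05 (edgeR's quasi-likelihood test, Benjamini-Hochberg adjustment), which is 0.0316% of the genes tested, 0.0253% higher and 0.00632% lower. An unadjusted p under 0.05 was reached by 282 genes, or 1.78%. In the wild type an adjusted p under 0.05 was reached by 0.284% of genes, 37 higher (0.234%) and 8 lower (0.0506%). An unadjusted p under 0.05 was reached there by 1816 genes. The genes that rose in the mutant were the glutathione S-transferase gene gst-38, the aspartyl protease gene asp-14 and 2 genes of signal recognition particle RNA, srpr-1.2 and srpr-2.1. The gene that fell was hrg-7, which encodes a secreted protease-like protein that carries haem signals between intestine and neurons. Because whole animals were sampled, a change in the number of cells that express a gene and a change in RNA per cell cannot be told apart.

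In gst-38 the level was 6.91 and 6.06 CPM in the mutant without cadmium and 30.7 and 18.7 CPM with it. The groups did not overlap, and the lower cadmium library was still well above both libraries without the metal. The gene (WBGene00001786, chromosome V, 15915168 to 15916079, - strand, 2 exon blocks, WBcel235) rose by 1.93 ± 0.26 in log2 (SE; 95% interval 1.36 to 2.498, adjusted p = 0.0454), or 3.81-fold. Glutathione S-transferases attach glutathione to reactive compounds. The wild-type level of gst-38 went from 3.74 and 4.70 CPM to 42.8 and 57.1 CPM, a log2 change of 3.57. The difference between the genotypes was -1.64 (95% interval -2.437 to -0.8437) and did not pass the interaction test over all genes (adjusted p = 0.406). Of the 37 genes that rose in the wild type, gst-38 was the 1 that also passed in the mutant.

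For asp-14, an aspartyl protease gene, the mutant libraries held 187 and 190.4 CPM without cadmium and 499 and 439 CPM with it. All 4 wild-type libraries, at 173 and 212 CPM without and 272 and 281 CPM with cadmium, lay below both mutant cadmium libraries. The change in the mutant was 1.31 ± 0.153 in log2 (adjusted p = 0.0249), or 2.48-fold, and that in the wild type was 0.52 (adjusted p = 0.291). The difference of 0.79 did not pass (adjusted p = 0.896). The annotated body of asp-14 (WBGene00019619, chromosome X, 6444185 to 6446738, - strand, 7 exon blocks) shares 90 bases with fah-1, a gene of tyrosine breakdown on the same strand. The level of fah-1 was 124 and 118 CPM without and 130 and 118 CPM with cadmium, a log2 change of 0.03. Among 11 tested asp genes for aspartyl proteases, a list without hrg-7, 9 were above 0 and 2 below, and asp-14 alone passed. Their median was 0.241, and 0.12 to 0.323 with 1 mutant library left out. The next members were asp-12, from 12.5 and 11.6 CPM to 22.1 and 15.4 CPM (log2 0.64), and in the other direction asp-13, from 227 and 217 CPM to 168 and 160.2 CPM (log2 -0.44, named after its values were seen).

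**Figure D1:**
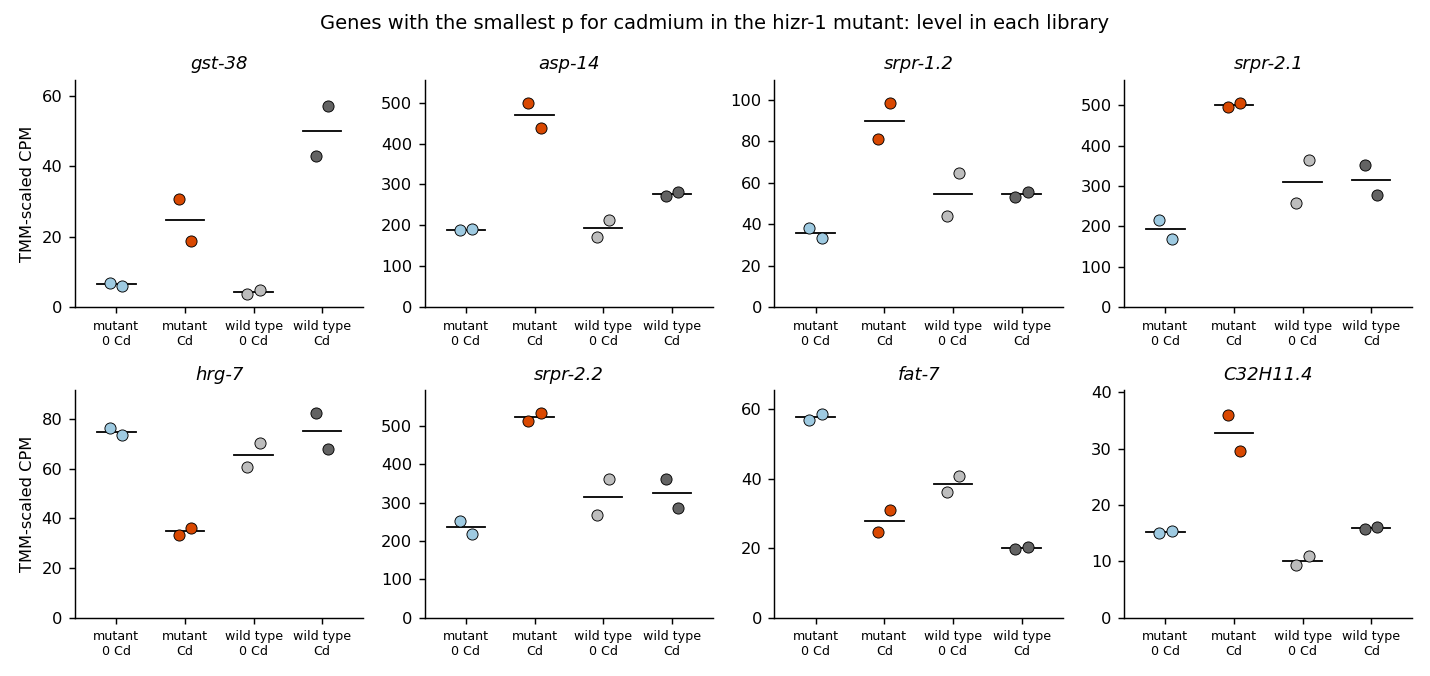
TMM-scaled CPM of 8 genes (vertical axis, linear, from 0) in each library of the 4 groups (horizontal axis). Points are libraries, 2 per group, and lines are group means. The panels show the 5 genes that passed in the mutant and, as srpr-2.2, fat-7 and C32H11.4, the next 3 by p, and in every panel both mutant cadmium libraries lie apart from both mutant libraries without cadmium.

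The signal recognition particle guides ribosomes that make secreted proteins to the endoplasmic reticulum, and its core is a non-coding RNA. At srpr-1.2 the mutant had 38.2 and 33.4 CPM without cadmium and 81.2 and 98.4 CPM with it. At srpr-2.1 it had 216 and 169 CPM without and 496 and 505 CPM with cadmium, and at srpr-2.2 it had 254 and 219 CPM without and 513 and 534 CPM with cadmium. All 3 genes were thus higher in both mutant cadmium libraries than in any library of the other 3 groups, which reached 64.7, 364 and 362 CPM. The log2 change was 1.32 ± 0.19 for srpr-1.2 and 1.38 ± 0.198 for srpr-2.1 (both adjusted p = 0.0454), and 1.15 ± 0.183 for srpr-2.2, which did not pass (adjusted p = 0.084). Their wild-type changes were 0.00, 0.02 and 0.05. The differences between genotypes of 1.324, 1.358 and 1.099 did not pass (adjusted p = 0.195, 0.211 and 0.492).

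All 3 genes lie on chromosome III, srpr-1.2 at 4369475 to 4369767 on the - strand, srpr-2.1 at 5211220 to 5211518 on the + strand and srpr-2.2 at 5031410 to 5031708 on the - strand, each as 1 exon block. They are copies of 1 family, and how the authors counted reads that match several copies is not given in the sources used here, so the share of each copy is uncertain. The remaining members srpr-1.1 and srpr-3 had 0 counts in all 8 libraries. The RNA subunit gene of RNase P, rpr-1, went from 40.5 and 33.8 CPM to 59.0 and 69.2 CPM (log2 0.78 ± 0.227, adjusted p = 1.00), and was named after its values were seen. As a class, 60 small nucleolar RNA genes had a median of 0.02 with 31 above 0. Their summed level in the mutant was nonetheless higher with cadmium, at 528 and 338 CPM without and 709 and 827 CPM with it. In the wild type it was 459 and 927 CPM without and 452 and 520 CPM with cadmium.

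The gene that fell, hrg-7 (WBGene00007605, chromosome V, 12742041 to 12744170, + strand), had 76.3 and 73.4 CPM in the mutant without cadmium and 33.3 and 36.1 CPM with it. Both mutant cadmium libraries were below every other library, since the wild type held 60.6 and 70.2 CPM without and 82.2 and 67.8 CPM with cadmium. The change was -1.11 ± 0.153 in log2 in the mutant (95% interval -1.442 to -0.7774, adjusted p = 0.0454) and 0.20 in the wild type. The difference of -1.31 ± 0.214 passed the interaction test (adjusted p = 0.0418). Of the 5 genes that passed in the mutant, hrg-7 is the 1 whose response differed between the genotypes by that test. Its 3′ end shares 11 bases with C15C8.7 on the opposite strand, which was at 0.35 in the mutant. The strand setting of the counting is not given in the sources used here, so reads in that overlap cannot be told apart.

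Haem transport genes other than hrg-7 did not pass. Of 9 genes on the haem list 7 were tested, since hrg-3 and hrg-5 had at most 9 counts in any library, and of these 7 the cadmium libraries lay below the others without overlap at 4 and above at 2. Over all genes the mutant groups were separated in this way at 14.9% of genes downward and 16.7% upward, and 50.4% of genes had a log2 change above 0 and 49.6% below. Gene hrg-1, for a transporter that releases haem from lysosomal compartments, had 11.7 and 10.00 CPM without and 6.36 and 7.27 CPM with cadmium (log2 -0.67 ± 0.21, adjusted p = 1.00). Gene hrg-4, for the haem importer of the intestinal surface, had 4.57 and 3.71 CPM without and 1.74 and 2.89 CPM with cadmium (log2 -0.87 ± 0.311). Both genes are known to be induced when haem is scarce.

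The paralog hrg-6 was at -0.50 and hrg-2, for a haem-binding protein of the hypodermis, at -0.32. The 2 members above 0 were the homologs of the human haem trafficking gene TANGO2, hrg-9 at 0.59 and hrg-10 at 0.16. From the list of cadmium detoxification genes, mrp-5, whose product exports haem from the intestine, had 167 and 190 CPM without and 131 and 134 CPM with cadmium (log2 -0.43 ± 0.135, adjusted p = 1.00). The median of the 7 genes was -0.50 beside 0.00 over all genes. It was -0.785 without mutant library 2 lacking cadmium and -0.205 without library 1. Their wild-type changes were 0.24 for hrg-1, 0.03 for hrg-4 and -0.13 for mrp-5, and their differences between genotypes did not pass. Except for hrg-7, hrg-1 and mrp-5, the members were named after their values were seen.

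**Figure D2:**
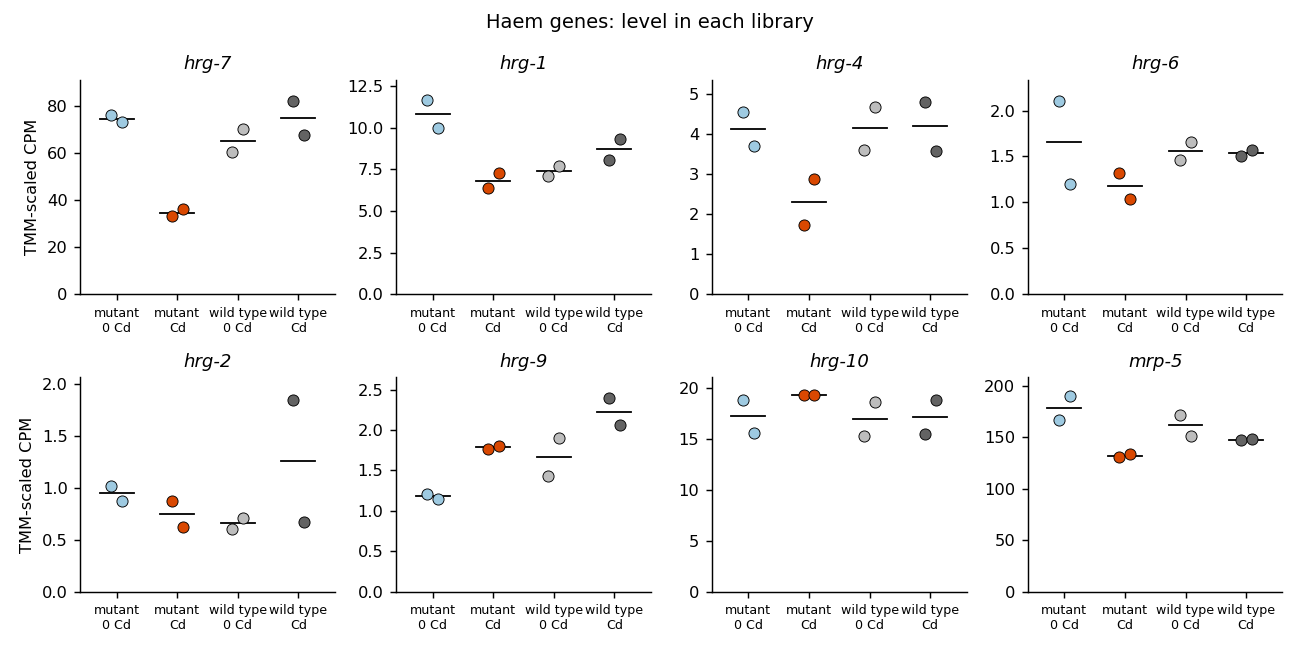
TMM-scaled CPM of 7 tested haem genes and mrp-5 (vertical axis, linear, from 0) in each library of the 4 groups (horizontal axis). Points are libraries and lines are group means. At hrg-7, hrg-1, hrg-4 and mrp-5 both mutant cadmium libraries lie below both mutant libraries without cadmium, while hrg-9 and hrg-10 lie above.

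Below the threshold, the genes with the smallest p included fat-7, for a stearoyl-CoA desaturase that makes oleic acid. Its level was 56.8 and 58.6 CPM in the mutant without cadmium and 24.6 and 30.9 CPM with it. The wild-type level was 36.1 and 40.8 CPM without and 19.8 and 20.2 CPM with cadmium. The change of -1.06 ± 0.167 in the mutant missed the threshold (adjusted p = 0.084), while that of -0.94 in the wild type passed it (adjusted p = 0.0433). The difference was -0.12 with a 95% interval of -0.6281 to 0.393, an interval that stays within 1 in either direction but does not show that the responses are equal. DESeq2 called fat-7 in the mutant (adjusted p = 0.000137). It did not pass with RLE scaling, with the replicate number as a block or with only the 4 mutant libraries. Over 13 alternatives its log2 change ran from -1.23 to -0.90. The related desaturase genes fat-5 and fat-6, the latter named after its values were seen, were at -0.47 and -0.22. Of 26 fat metabolism genes, fat-7 included, 20 were below 0, with a median of -0.11. At 10 (38.5%) the cadmium libraries were lower without overlap, beside 14.9% of all genes.

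Among the other genes with a small p above 0 was C32H11.4, which had 15.1 and 15.3 CPM without and 35.98 and 29.54 CPM with cadmium (log2 1.11 ± 0.186, adjusted p = 0.117). The others were C17H12.6 (log2 1.42), srlf-3 (1.23), F55G11.2 (0.91), K11H12.4 (0.86), dod-24 (0.77), R08A2.7 (1.31), W03G1.5 (1.92) and ifas-2 (2.68). The level of ifas-2 went from 0.195 and 0.0546 CPM to 1.16 and 0.567 CPM. That is 5 and 1 counts without and 36 and 11 with cadmium, beside 6 and 6 in the wild type without cadmium. All libraries without cadmium were thus under the 10 counts of the filter for ifas-2, so its change is uncertain. None of these genes passed. Their wild-type changes were all above 0 too, from 0.14 for K11H12.4 to 1.76 for W03G1.5. None of the 10 differences between genotypes in this group of genes above 0, srpr-2.2 included, passed the interaction test.

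On the side below 0 were ugt-53, for a UDP-glycosyltransferase, with 10.59 and 11.25 CPM without and 4.79 and 4.95 CPM with cadmium (log2 -1.17 ± 0.212, adjusted p = 0.201), and R193.2, with 67.2 and 62.7 CPM without and 32.6 and 39.4 CPM with cadmium (log2 -0.85 ± 0.154, adjusted p = 0.201). Further members were R08F11.4 (-1.78), Y53H1C.3 (-1.59), F54E4.2 (-1.04), WBGene00016875 (-0.76) and the cytochrome P450 gene cyp-35A3 (-0.80), with hrg-1 and fat-7 as above. In the wild type ugt-53, R193.2, R08F11.4 and cyp-35A3 were below 0 too, at -1.01, -0.49, -1.02 and -0.65. So were Y53H1C.3 (-0.26) and F54E4.2 (-0.25), while WBGene00016875 was at 0.28. For these genes the differences between genotypes did not pass. The UDP-glycosyltransferase gene ugt-62 went from 117 and 132 CPM to 88.1 and 81.1 CPM in the mutant (log2 -0.56, adjusted p = 0.892). The wild-type mean went from 140.6 ± 4.872 to 229.8 ± 1.904 CPM (SD, n = 2, log2 0.71, adjusted p = 0.052 by edgeR). Neither change passed alone, and the difference of -1.27 between them did (adjusted p = 0.0203).

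The 37 genes that rose in the wild type were scattered around 0 in the mutant. Their median log2 change was 2.05 in the wild type and 0.04 in the mutant, with 20 above 0 and 17 below and a range of -1.089 to 1.929. In 9 of them (24.3%) the mutant cadmium libraries were higher without overlap, against 16.7% of all genes. The 95% intervals of the 2 genotypes did not overlap for 30 of the 37, and the interaction test passed for 15. Over all genes it passed for 0.114%, with a lower change in the mutant at 0.107% and a higher one at 0.00632%. That test uses the same wild-type libraries that chose these genes. In the mutant, 7 of the 37 had an unadjusted p under 0.05, 5 of them above 0.

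For the metallothioneins, mtl-1 was at -0.01 and mtl-2 at 0.08 in the mutant, the cadmium-responsive gene cdr-1 at -0.11, and the zinc transporter genes cdf-2 and ttm-1 at 0.05 and -0.02. For mtl-1 the 4 mutant libraries held 4.30 and 3.71 CPM without and 4.24 and 3.71 CPM with cadmium, where the wild-type cadmium libraries held 282 and 290 CPM. The P450 genes cyp-13A4, cyp-13A7 and cyp-14A4 were at -0.10, -0.83 and -0.21. The gene T08G5.1 beside mtl-2 had a wide interval, -0.652 to 2.554, from 4 and 2 counts without and 13 and 1 counts with cadmium. Among 19 zinc transporter genes 8 were above 0 and 0 passed, with a median of -0.015. It was 0.015 without mutant library 2 lacking cadmium and -0.052 without library 1.

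Besides gst-38, some genes of the wild-type response kept a mutant change above 0 that did not pass the adjusted threshold. F15B9.6 went from 0.430 and 0.710 CPM to 1.22 and 1.03 CPM (log2 1.03, unadjusted p = 0.0285), and C08E8.4 from 3.44 and 3.55 CPM to 6.87 and 5.31 CPM (log2 0.81, unadjusted p = 0.0138), by edgeR's test. F40F8.5 (log2 0.34) and cyp-13A5 (0.81) were the remaining ones with an unadjusted p under 0.05. At cyp-13A5 the mutant groups overlapped, with 2.226 and 2.895 CPM without and 6.039 and 2.732 CPM with cadmium. On the opposite side bcmo-1, a carotenoid oxygenase gene, went from 0.625 and 0.656 CPM to 0.289 and 0.309 CPM (log2 -1.09), and ugt-1 from 9.73 and 11.1 CPM to 7.48 and 7.06 CPM (log2 -0.51). Both rose in the wild type, by 3.04 and 1.49, and their interactions passed (adjusted p = 0.0203 and 0.0188). These 6 genes were named after their values were seen.

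Of the 8 genes that fell in the wild type, 7 were below 0 in the mutant, but 0 passed. At 5 the mutant cadmium libraries were lower without overlap, beside 14.9% of all genes. The median of the 8 genes was -1.64 in the wild type and -0.31 in the mutant. The exception in sign was cth-1, for cystathionine gamma-lyase, an enzyme of cysteine synthesis. Its level was 16.68 and 19.01 CPM in the mutant without and 26.5 and 29.2 CPM with cadmium, against 50.6 and 64.8 CPM and 28.8 and 26.9 CPM in the wild type. The change in the mutant was 0.64 ± 0.177 (adjusted p = 1.00) and that in the wild type -1.05. The difference of 1.70 ± 0.249 passed (adjusted p = 0.0203). With 1 library left out, the change in the mutant ran from 0.549 to 0.733. Which genes passed the interaction test depended on the libraries used, as given below. The cadmium libraries of the 2 genotypes overlapped, and without cadmium both mutant libraries were below both wild-type libraries. Among 19 genes of hydrogen sulfide and cysteine metabolism 5 were above 0, with a median of -0.09.

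**Figure D3:**
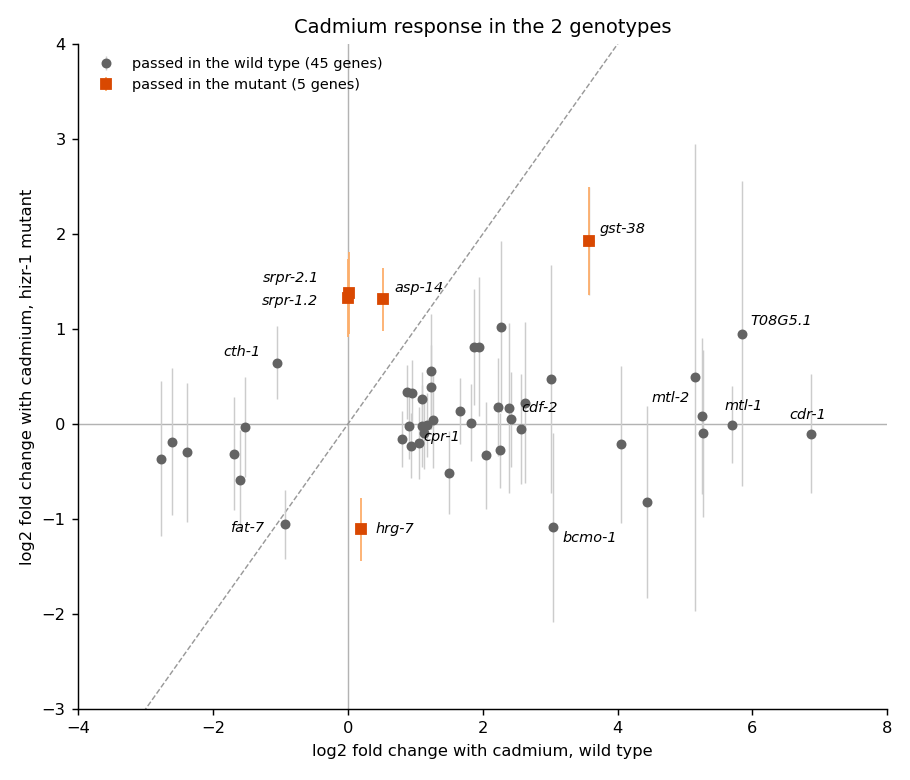
Log2 fold change with cadmium in the wild type (horizontal axis) and in the hizr-1 mutant (vertical axis, bars are 95% intervals). Circles are the 45 genes that passed in the wild type, squares the 5 that passed in the mutant, and the dashed line marks equal change. The 37 genes to the right spread from -1.089 to 1.929 on the vertical axis, with gst-38 at the top, and fat-7 lies near the dashed line.

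Genes of enzymes that conjugate or oxidise foreign compounds went in different directions, and gst-38 was the 1 that passed. Of 41 glutathione S-transferase genes tested, 34 were above 0, with a median of 0.23. At 16 (39.0%) both mutant cadmium libraries were higher without overlap, beside 16.7% of all genes. Examples were gst-6 (7.46 and 6.44 CPM without, 12.56 and 9.743 CPM with cadmium, log2 0.68), gst-5 (0.44) and gst-40 (1.16), the last pair named after their values were seen. Without mutant library 2 lacking cadmium the median was 0.065, and without library 1 lacking cadmium it was 0.34. Of 64 P450 genes 42 were below 0 and 19 (29.7%) were lower without overlap, beside 14.9% of all genes. Their median was -0.07 (0.008 without the same library 2 and -0.163 without library 1). Of 62 UDP-glycosyltransferase genes 39 were below 0 and 22 (35.5%) lower without overlap, beside the same 14.9%. Their median was -0.13 (-0.035 without the same library 2 and -0.189 without library 1). In 10 SKN-1 target genes 5 were above 0 and gst-38 rose. The best known of them, gst-4 and gcs-1, were at 0.26 and -0.04 and were also named after their values were seen.

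Genes for cadmium binding and export gave 0 that passed among 14. The phytochelatin synthase gene pcs-1, the vacuolar transporter gene hmt-1 and the glutathione synthesis gene gcs-1 were at -0.13, -0.06 and -0.04. Above 0 were pgp-5 (10.4 and 13.2 CPM without, 18.92 and 16.39 CPM with cadmium, log2 0.59) and pgp-6 (5.74 and 8.79 CPM without, 10.2 and 11.7 CPM with cadmium, log2 0.59), both ABC transporter genes. All but pgp-5 were named here after their values were seen. The other 12 were below 0, and the median was -0.13, or 0.009 without mutant library 2 lacking cadmium and -0.269 without library 1.

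Heat shock genes did not pass either. Of 14 tested, 12 were below 0 and 5 were lower in both cadmium libraries without overlap, beside 14.9% of all genes. Their median was -0.085, with -0.196 without mutant library 1 lacking cadmium and -0.037 without library 2. The inducible Hsp70 gene hsp-70 had 74.6 and 68.7 CPM without and 54.7 and 49.3 CPM with cadmium (log2 -0.46). The near-identical Hsp70 pair F44E5.5 and F44E5.4, whose reads could be split between the copies, was at -0.744 and -1.198, and the small heat shock genes hsp-16.41 and hsp-16.2 at -0.41 and -0.36. The same 5 genes were above 0 in the wild type, at 0.59 to 0.98. Of the differences between genotypes, 0 of the 5 passed, the smallest adjusted p being 0.662 for hsp-70. Of these genes, F44E5.4, hsp-16.41 and hsp-16.2 were named after their values were seen.

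Antimicrobial genes and several large families were placed mostly above 0, by an amount that moved with the mutant library left out. Of 52 genes for lysozymes, saposin-like proteins and antimicrobial peptides 44 were above 0, but 0 passed. At 20 (38.5%) the cadmium libraries were higher without overlap, beside 16.7% of all genes. Examples were irg-1, an infection response gene (1.25 and 1.26 CPM without, 2.70 and 2.78 CPM with cadmium, log2 1.12), and abf-5 (2.109 and 1.803 CPM without, 3.73 and 3.20 CPM with cadmium, log2 0.82). The median of 0.35 became 0.052 without mutant library 2 lacking cadmium and 0.654 without library 1 lacking cadmium. Of 33 histone genes 32 were above 0 and of 78 ribosomal protein genes 73. Their medians of 0.47 and 0.26 became -0.008 and -0.073 without library 2 lacking cadmium. They were 1.164 and 0.781 without library 1 lacking cadmium. Histone genes are near-identical copies, so the share of each is uncertain. Of 117 C-type lectin genes 73 were above 0 and 0 passed. Their median was 0.076, with 0.042 without mutant library 2 lacking cadmium, 0.124 without library 1 lacking cadmium and 0.016 without mutant cadmium library 1. The member with the smallest p was clec-68, at 1.64 and 0.492 CPM without and 5.56 and 5.36 CPM with cadmium (log2 2.29 ± 0.551, edgeR adjusted p = 1.00). It passed by DESeq2 (adjusted p = 0.00944), with no filter on low counts and without either wild-type control library. Its log2 change was 3.46 without mutant library 1 lacking cadmium and 1.73 without library 2, and that in the wild type was 1.67.

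**Figure D4:**
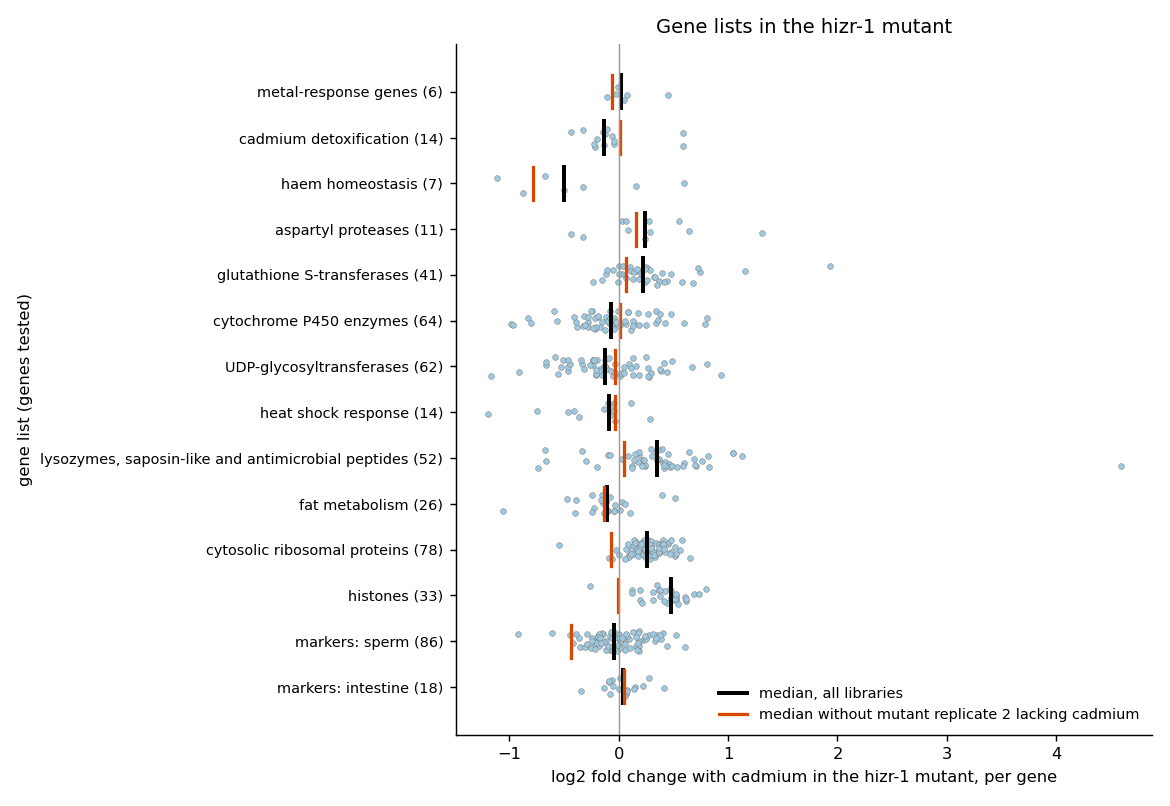
Log2 fold change with cadmium in the mutant (horizontal axis) for the tested genes of 14 lists (rows, number of genes in brackets). Points are genes, black ticks the median over all libraries and orange ticks the median without mutant library 2 lacking cadmium. The point at 4.59 is ilys-3, which had 0 and 0 counts without and 4 and 2 counts with cadmium, and the orange tick sits near 0 for histones, ribosomal proteins and antimicrobial genes.

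Among the markers of cell types and stages 0 genes passed in the mutant. Sperm markers summed to 857 and 498 CPM in the mutant without cadmium and to 669 and 682 CPM with it, so the cadmium libraries lay between the 2 without. Their median over 86 genes was -0.05, 0.804 without library 1 lacking cadmium and -0.436 without library 2. Markers of oocytes and early embryos (23 genes), intestine (18), muscle (18), neurons (19) and hypodermis (18) had medians of -0.03, 0.04, 0.03, 0.03 and -0.02, which with 1 mutant library left out ran from -0.135 to 0.132. Zygotic embryo markers (9) had a median of 0.144, or 0.105 to 0.246 with 1 mutant library left out. At 4 of the 9 both cadmium libraries were higher without overlap and at 0 lower, beside 16.7% and 14.9% of all genes. Their summed level was 19.02 and 18.35 CPM without and 21.84 and 18.82 CPM with cadmium, so the sums overlapped. The 6 vitellogenin genes were all below 0 with a median of -0.19, which was 0.118 without cadmium library 1 and -0.506 without cadmium library 2. The part of these differences in the gene changes above was not tested.

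The precision of the mutant contrast differed between genes. The 95% interval of the log2 change lay within 1 in either direction, that is within 2-fold, for 10678 genes (67.5%). It lay wholly above 0.5 for 20 genes and wholly below -0.5 for 7. The median size of the change was 0.15 in the mutant and 0.225 in the wild type, and the median SE in the mutant was 0.251. Between duplicates the median size of the log2 difference was 0.252 without and 0.147 with cadmium in the mutant. In the wild type it was 0.258 and 0.288. These values compare 2 single libraries, as log2 of CPM plus 0.1, while a change compares means of 2 libraries. The 2 measures are therefore not directly comparable. None of the 5 genes that passed kept its call when mutant library 2 without cadmium was left out, although the log2 changes were then 1.83 for gst-38, 1.32 for asp-14, 1.23 for srpr-1.2, 1.21 for srpr-2.1 and -1.14 for hrg-7 (adjusted p = 0.177 to 0.885). The count of calls was also 0 without mutant library 1 lacking cadmium, mutant cadmium library 1 or either wild-type cadmium library, and it was 1, gst-38, without mutant cadmium library 2.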

How the data were processed

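Gene expression was measured by RNA-seq in whole animals. The 4 groups came from the sample labels, with 2 libraries each. Reads were processed with STAR 2.0.4b, Subread and featureCounts 1.45 on WBcel235, per the submitters' processing notes. The deposited count column holds whole read counts for 46726 genes per library, per the file headers. CPM as deposited is the count scaled to the library's sum, and RPKM as deposited is that value per kilobase of exon, both named so by the file headers. Both could be recomputed from the counts to within 1e-06. Tests used the counts only. Of the gene identifiers, 46364 were in the annotation used for names and overlaps (WBcel235, Ensembl release 115), and 61.72% of these had the same coordinates. Coordinates printed are those of the files.

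Low counts were removed with filterByExpr (at least 10 counts by group and 15 in total), and 15818 genes were tested. A single edgeR quasi-likelihood fit (edgeR 4.0.16, R 4.3.3) with TMM scaling and robust dispersions took all 8 libraries as 4 group means. Contrasts were cadmium in the mutant, cadmium in the wild type and their difference (the interaction), each 2-sided with Benjamini-Hochberg adjustment over all genes. A gene rose or fell where its adjusted p was under 0.05. The SE is the size of the log2 change over the root of F, and 95% intervals use 6.14 to 12.31 degrees of freedom. No duplicates agreed within sampling noise. The p-values rest on a spread estimated over all 8 libraries, wild type included. The labels only number the duplicates and do not say whether they were separate cultures. The limit that a count of 0 allows, 3 counts, was 0.1014 to 0.1697 CPM and covers counting error only. DESeq2 1.42.0 was an alternative, as were RLE scaling, no filter, the 4 libraries of a contrast alone, a replicate block and leaving out each library.

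The 34 gene lists and the members described were chosen with earlier results of these data known, and lists are described by counts and medians without a set test. Named genes are those that passed in the mutant, the 10 above and 10 below 0 with the smallest p and no overlap between groups, the 10 smallest p in the wild type with the metal-response list, and up to 2 genes per list. Others are said to be named after their values were seen.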

Additional observations from a re-analysis of the deposited data

Results flagged for a closer look

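The cadmium response differed between the genotypes for 11 genes chosen by the naming rule and for bcmo-1 and ugt-1, named after their values were seen, by edgeR's interaction test over all genes, given in log2 with the wild-type change subtracted from the mutant change. In 8 of the 11 the change was in the wild type: the difference was -6.976 for cdr-1, -5.708 for mtl-1, -5.357 for cyp-13A4, -5.261 for cyp-13A7, -5.176 for mtl-2, -4.26 for cyp-14A4, -2.538 for bcmo-2 and -2.368 for cdf-2. In hrg-7 the difference was -1.309, with the change in the mutant (-1.11 against 0.20). In ugt-62 it was -1.268, with opposite changes of -0.56 in the mutant and 0.71 in the wild type, neither of which passed alone. In cth-1 it was 1.695, with 0.64 in the mutant and -1.05 in the wild type. In bcmo-1 it was -4.133 (-1.09 in the mutant, 3.04 in the wild type) and in ugt-1 -2.005 (-0.51 and 1.49). Which genes passed this test depended on the libraries used, as the next section gives.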

How the results depend on the processing

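By edgeR's quasi-likelihood test the count of genes that passed for cadmium in the mutant was 5, and 3 with RLE scaling, 21 with no filter on low counts, 11 by DESeq2 and 0 with only the 4 mutant libraries (498 at an unadjusted p under 0.05). It was 0 to 14 with 1 library left out: 0 without either wild-type cadmium library, either mutant library lacking cadmium or mutant cadmium library 1 (168 to 1189 at an unadjusted p under 0.05), 1, gst-38, without mutant cadmium library 2, and 14 when a wild-type control, whichever of the pair, was dropped. All 5 genes were among those that passed with no filter, by DESeq2 and when either wild-type control was left out. Over 13 alternatives the log2 change ran from 1.53 to 2.24 for gst-38, 1.22 to 1.40 for asp-14, 1.18 to 1.46 for srpr-1.2, 1.21 to 1.56 for srpr-2.1 and -1.17 to -1.05 for hrg-7. The cause of these moves was not tested. With 2 libraries a group, a left-out library leaves a lone sample that is assumed to vary like the other groups.

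The interaction count of 18 became 90 with no filter, 28 by DESeq2 and 4 to 71 with 1 library left out. The wild-type count of 45 became 576 with no filter, 399 with only its 4 libraries, 210 by DESeq2 and 17 to 423 with 1 library left out. With the replicate number as a block 0 genes passed in the mutant, 296 at an unadjusted p under 0.05. The labels tie the replicate numbers to no shared batch. Deviations of same-numbered libraries correlated across genes by 0.043 between the mutant groups and 0.4195 between the wild-type groups, and by -0.4306 to 0.1218 between groups of different genotype, so the numbers were not taken to pair the samples. The block left 15 genes in the interaction and 34 in the wild type.

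With 1 library left out, the change of some genes turned sign. The log2 change in the mutant then lay between -1.31 and 1.58 for T08G5.1, -0.253 and 0.088 for cyp-13A4, and -0.0658 and 0.139 for cdf-2. It lay between -0.115 and 0.106 for mtl-1, between -0.347 and 0.4996 for mtl-2, and between -0.434 and 0.397 for cdr-1. The same limits were -0.026 and 0.405 for cdr-4, -0.01 and 0.866 for rpl-26, -0.63 and 0.0983 for ftn-1, -0.303 and 0.0321 for chs-1, -0.533 and 0.0439 for vit-3, and -0.48 and 0.0274 for vit-4. For the wild type they were -0.254 and 0.304 for srpr-1.2 and -0.208 and 0.288 for srpr-2.1. None of these values had passed.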

Other observations

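Genes with a higher level in the mutant cadmium libraries included neighbours on chromosome IV, a span chosen after its values were seen. From C32H11.4 at 12921288 to the end of F55G11.2 at 12969289 (WBcel235) 9 genes were tested, of which 8 were above 0. At 6 both cadmium libraries were higher without overlap, as at 16.7% of all genes. Of the 6, C32H11.4, dod-24 and F55G11.2 had been named for a small p and no overlap, so their place was fixed beforehand. The median log2 change of the 9 genes, these included, was 0.70 beside 0.00 over all genes. Gene dod-24, named for lying downstream of the transcription factor DAF-16, had 45.04 and 41.84 CPM without and 76.8 and 71.4 CPM with cadmium (log2 0.77). F55G11.8 had 17.58 and 16.39 CPM without and 27.9 and 27.3 CPM with cadmium (log2 0.70), and F55G11.7 and dod-22 were at 0.70 and 0.59. The wild-type changes of these 4 genes were 0.35, 0.05, 0.29 and -0.19. None of the 9 passed over all genes by edgeR's test.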
